A study of Mus musculus with 18 samples.

Results

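Regulatory T cells (Treg) taken from B16 melanoma were set against Treg of spleen and lymph node from the same mouse strain. The comparison rests on 4 of the 18 arrays of the study, all those whose titles name B16 or spleen together with Treg, and it takes in every probe set of the array. The tumour Treg group holds 2 arrays of CD4 T cells sorted as Foxp3-positive from B16 tumours, which grow from a melanoma line of the mouse. The lymphoid Treg group holds 2 arrays of cells sorted the same way from spleen and lymph node. Both groups came from Foxp3GFP mice, in which cells that express Foxp3 carry green fluorescent protein, at an age of 6 to 8 weeks. CD4 cells were enriched by positive selection and sorted in 2 rounds on GFP, so the reporter and not the Foxp3 protein chose the cells. The sources used here do not state whether replicates came from separate animals, how many animals were pooled, how large the tumours were or how long they had grown, and the p-values therefore measure only the spread between these samples. The 4 matching arrays of Foxp3-negative effector T cells (Teff), 2 from tumour and 2 from spleen and lymph node, served to estimate the spread and to test whether a difference in Treg exceeded that in Teff.

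Treg hold back other immune cells and depend on the transcription factor Foxp3. Those of spleen and lymph node recirculate and in large part keep a resting profile, with factors such as TCF-1. Those of tumours and other non-lymphoid tissues carry inhibitory and costimulatory receptors, receptors for inflammatory chemokines and repair factors such as amphiregulin. Solid tumours are often poor in oxygen and glucose, and cells in low oxygen switch on glycolytic enzymes through hypoxia-inducible factors.

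Expression values are given on the log2 scale throughout. Array medians lay between 5.86 and 5.892, and the 2 arrays of a group correlated at r = 0.9958 to 0.997 over probe sets, against a lowest r of 0.9766 between a tumour and a lymphoid Treg array. In all, 22626 probe sets were tested with limma, and an adjusted p under 0.05 (Benjamini-Hochberg over all of them) counts as passing. In tumour Treg 2412 probe sets (10.7%) were higher and 2504 (11.1%) lower, 4916 in all (21.7%), of which 623 were higher and 403 lower by at least 2-fold. Each of 13231 genes was represented by its brightest probe set. On that basis 1464 genes (11.1%) were higher and 1556 (11.8%) lower in tumour Treg, and the median difference of all genes was -0.03. These shares over all genes are the background given for every gene group described. A fit of only the probe sets with a mean above 5.88, the median of all, called 2212 higher and 2575 lower. Bright probe sets were thus called at a larger share than all probe sets. Lists of bright genes that lie moderately above the background may therefore be near the share of bright genes.

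**Figure D1:**
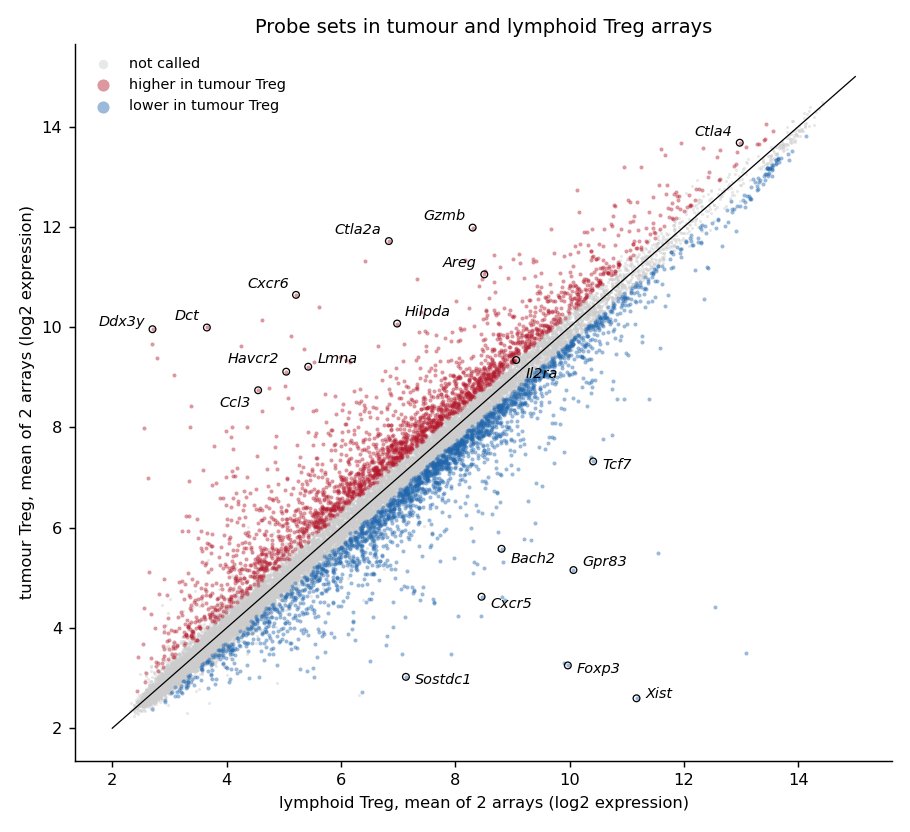
Mean log2 expression of 22626 probe sets in tumour Treg (vertical axis, 2 arrays) against lymphoid Treg (horizontal axis, 2 arrays), with named genes circled. Red and blue points passed the test as higher and lower in tumour Treg, 2412 and 2504 of them. Cxcr6 and Dct lie far above the diagonal and Foxp3, Gpr83 and Xist far below it, while Il2ra lies close to it.

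Foxp3 itself did not follow the label of the tumour Treg arrays. Its probe set, for a gene on the X chromosome, read 3.20 and 3.30 in tumour Treg and 9.99 and 9.95 in lymphoid Treg, a difference of -6.72 (SE 0.0907, adjusted p = 3.62e-09). The 2 tumour Treg arrays stood at the level of the Foxp3-negative cells, which read 3.18 and 3.13 in tumour Teff and 3.19 and 3.05 in lymphoid Teff. The name tumour Treg therefore stands for the 2 arrays labelled so. Gpr83, a G protein-coupled receptor enriched in Treg, went the same way, with 5.20 and 5.11 in tumour Treg against 10.11 and 10.02 in lymphoid Treg (difference -4.91, SE 0.151, adjusted p = 6.69e-07).

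The other Treg core genes did not move as a block. Of 21 measured members of the list, 10 were higher and 7 lower in tumour Treg, with a median difference of 0.28. Between tumour and lymphoid Teff 11 of the 21 were higher and 4 lower, with a median of 0.66. Ctla4, the inhibitory receptor that strips CD80 and CD86 from antigen-presenting cells, read 13.80 and 13.56 in tumour Treg and 12.94 and 13.02 in lymphoid Treg (difference 0.70, adjusted p = 0.00171). Tnfrsf18, which encodes the costimulatory receptor GITR, read 12.59 and 12.59 in tumour Treg against 11.45 and 11.48 in lymphoid Treg (difference 1.13, adjusted p = 4.77e-05). Both receptors were higher on the arrays on which Foxp3 stood at the level of Foxp3-negative cells. Penk, the enkephalin precursor, was also higher (1.23), as were Il2rb (0.98), the ectonucleotidase Entpd1 (0.94), Capg (0.84), Tnfrsf4 (0.83) and Swap70 (0.80). Ikzf4 differed by 0.53 and passed with all 8 arrays, but had adjusted p = 0.0683 to 0.0951 without tumour Treg array 1, tumour Treg array 2 or lymphoid Treg array 2. Socs2 differed by 0.54 and passed likewise, but had adjusted p = 0.105 to 0.117 without tumour Treg array 2 or lymphoid Treg array 2.

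The genes that fell beside Foxp3 and Gpr83 were the transcription factors Gata1 (-1.86) and Plagl1 (-1.19), the folate receptor Izumo1r (-1.84), Ecm1 (-0.95) and Nrp1 (-0.91), a surface receptor used to mark thymus-derived Treg. Nrp1 read 10.40 and 10.66 in tumour Treg and 11.39 and 11.49 in lymphoid Treg. No call was made for Il2ra (0.28), the high-affinity interleukin-2 receptor chain, for the Treg factor Ikzf2 (0.26), for Itgae (0.05) or for Nt5e (-0.51). A dimmer probe set of Il2ra was lower in tumour Treg, at -0.85 (adjusted p = 0.00726), so the 2 probe sets of this gene differ.

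**Figure D2:**
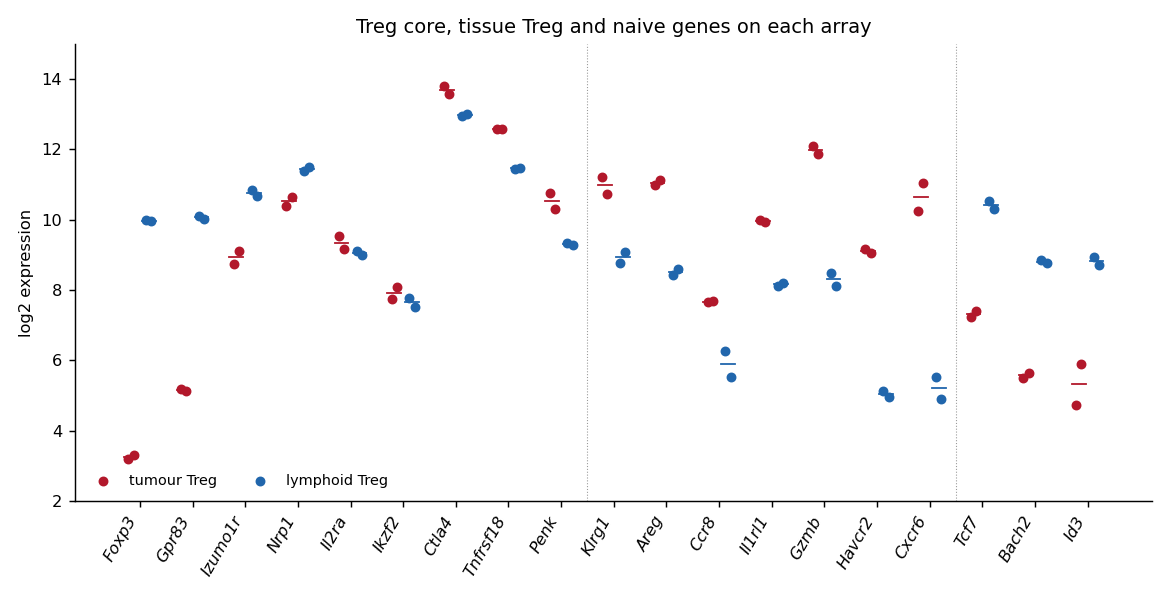
Log2 expression of Treg core genes (left), tumour and tissue Treg genes (middle) and naive genes (right) on each array. Points are arrays, 2 per group, with tumour Treg in red and lymphoid Treg in blue, and short lines are group means. Foxp3 and Gpr83 are low in both tumour Treg arrays, Il2ra and Ikzf2 lie close together in both groups, and Cxcr6, Havcr2 and Gzmb are high and Tcf7, Bach2 and Id3 low in tumour Treg.

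Sex-linked transcripts also split by tissue. Xist, the RNA that silences 1 X chromosome in female cells, read 2.62 and 2.57 in tumour Treg and 11.07 and 11.28 in lymphoid Treg. Ddx3y, on the Y chromosome, read 10.01 and 9.91 in tumour Treg and 2.81 and 2.60 in lymphoid Treg. Eif2s3y (6.96), Kdm5d (5.44) and Uty (2.12), also on the Y chromosome, were higher in tumour Treg, and Kdm6a (-0.998) and Eif2s3x (-0.81), which escape X inactivation, were lower. Kdm5c (-0.44) passed as lower with all arrays but had adjusted p = 0.0642 to 0.127 without tumour Treg array 1, tumour Treg array 2 or lymphoid Treg array 1. In all, 4 of 11 sex-linked transcripts were higher and 4 lower, against 4 higher and 3 lower between tumour and lymphoid Teff, so sex and tissue cannot be told apart in any difference given here. Of 727 X-linked probe sets 58 were higher and 89 lower in tumour Treg (20.2% called, against 21.7% of all probe sets).

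Melanoma marker transcripts were higher in the tumour arrays. Dct, a melanin synthesis enzyme of melanocytes, read 10.23 and 9.76 in tumour Treg and 3.49 and 3.83 in lymphoid Treg (difference 6.34, adjusted p = 1.33e-05), the largest of the 15 named rises outside the sex-linked transcripts. Of 8 melanoma markers measured 7 were higher in tumour Treg and 0 lower (median difference 1.79), with Pmel at 3.79 and Tyrp1 at 3.66, and Sox10 (0.02) was not called. Their summed level was 10.80 to 11.25 on the log2 scale in tumour Treg, against 7.82 to 7.84 in lymphoid Treg. Tumour Teff had 10.29 to 11.30 and lymphoid Teff 7.87 to 7.91, and the ranges of both tumour cell types overlapped. In the test of the Treg difference against the Teff difference 0 of the 8 markers were called, and 2 were more positive in Treg without tumour Teff array 1. The arrays hold a mixed RNA, in which fewer cells of a type and less RNA per cell cannot be told apart.

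Stromal and endothelial markers were likewise higher, 8 of 10 with a median of 1.36. Sparc, a matrix glycoprotein, read 7.86 and 8.90 in tumour Treg and 5.57 and 4.73 in lymphoid Treg (difference 3.23, adjusted p = 0.00115). The collagen gene Col3a1 read 6.73 and 8.53 in tumour Treg against 3.66 and 3.89 in lymphoid Treg. Its difference of 3.85 had adjusted p = 0.0501 to 0.0691 without tumour Treg array 2, lymphoid Treg array 1 or lymphoid Treg array 2. Without lymphoid Treg array 1 3 of the 10 markers were higher, without tumour Treg array 2 3 were higher and 1 lower, and without lymphoid Treg array 2 4 were higher. The summed level of the list was 9.67 to 10.77 in tumour Treg and 8.70 to 8.74 in lymphoid Treg. In tumour Teff it was 10.03 to 10.93 and in lymphoid Teff 8.84 to 8.86. In the test of the Treg difference against the Teff difference 0 of the 10 were called, and 2 were more negative in Treg without tumour Treg array 2.

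The other marker lists of blood cells were read against the 11.1% higher and 11.8% lower over all genes. Of 9 T cell markers 1 was called, since Trat1, a T cell receptor adaptor, was lower (-0.59), and Cd3e (-0.23), Cd3d (0.02) and Cd4 (0.16) were not called. The 2 CD8 markers, the 7 natural killer cell markers and the 4 erythroid markers had no call with all arrays, and 1 natural killer cell marker was lower without lymphoid Treg array 1. B cell markers had 0 higher and 4 lower of 11 (1 higher without either tumour Teff array), led by Cd22 (-1.74) and Cd79b (-1.01), while Pax5 (-0.04) was not called. Of 22 macrophage and dendritic cell markers 2 were higher and 4 lower (median -0.13). Lyz2, the lysozyme of myeloid cells, read 7.94 and 6.63 in tumour Treg and 9.60 and 9.87 in lymphoid Treg (difference -2.45, adjusted p = 0.00136), and Csf1r was also lower (-1.65), whereas Cd14 was higher (1.23). Without tumour Treg array 2 6 markers were higher and 2 lower, and without lymphoid Treg array 2 there were 1 higher and 2 lower. Neutrophil markers had 1 higher of 6, Mmp9 (0.71), with adjusted p = 0.0625 to 0.121 without tumour Treg array 2, lymphoid Treg array 1 or lymphoid Treg array 2, and S100a8 (0.24) and S100a9 (0.07) were not called. Plasma cell markers had 1 lower of 3, Jchain, whose lymphoid Treg arrays read 4.94 and 7.30 and which had adjusted p = 0.0686 to 0.145 without tumour Treg array 1, tumour Treg array 2 or lymphoid Treg array 2.

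**Figure D3:**
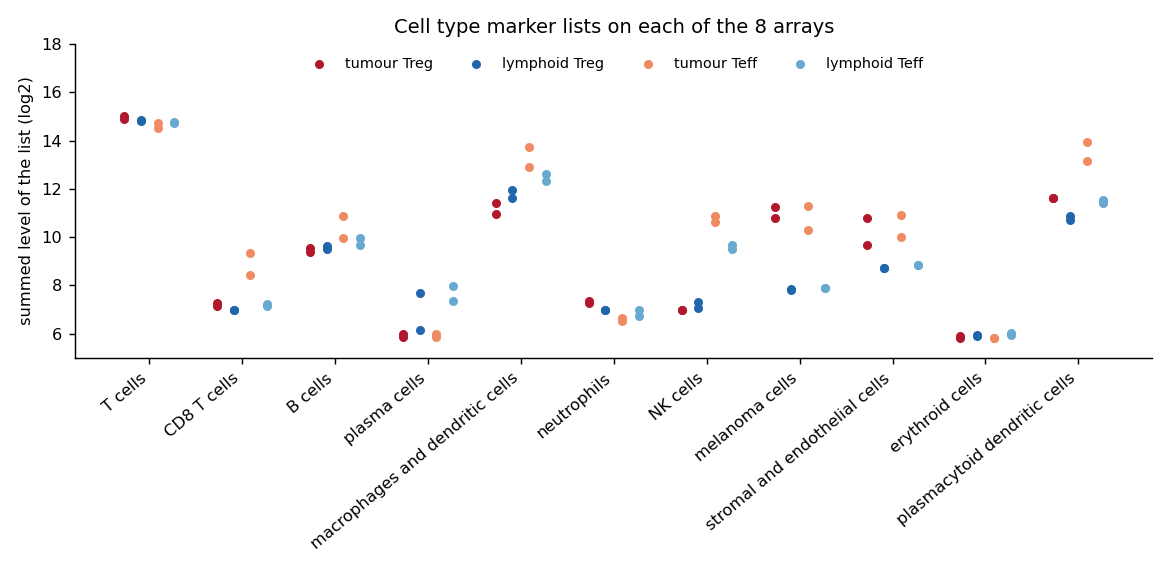
Summed level of each cell type marker list on the log2 scale, with 1 point per array and the 4 groups side by side for each list. Melanoma markers sit at 10.80 to 11.25 in tumour Treg and 7.82 to 7.84 in lymphoid Treg, stromal markers are also higher in all tumour arrays, and natural killer and plasmacytoid dendritic cell markers are highest in tumour Teff.

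The 15 largest rises mixed T cell genes with those of tumour and stroma. Cxcr6, a chemokine receptor of tissue-resident lymphocytes, read 10.24 and 11.05 in tumour Treg and 5.54 and 4.89 in lymphoid Treg, a 43.1-fold difference (5.43, SE 0.282, adjusted p = 9.21e-06). Ctla2a and Ctla2b, cysteine protease inhibitors first found in activated T cells, were higher by 4.88 and 4.71. They are close paralogs whose probe sets may share transcripts. Ccl3 (4.19), Havcr2 (4.07), Ccr1 (3.92), the nuclear lamina gene Lmna (3.78) and the lysosomal peptide transporter Slc15a3 (3.78) were among them too. Fabp4 (4.05), Igfbp3 (3.94) and Col4a1 (3.71), a fatty acid carrier, a binding protein of insulin-like growth factors and a basement membrane collagen, rose in Teff as well, with Teff differences of 4.30, 4.44 and 4.19. Dct, Pmel and Col3a1 belong to the melanoma and stromal lists, and a transcript that kept its deposited name MELA was higher by 4.79. Of these 15 genes 8 differed more in Treg than in Teff: Cxcr6, Ctla2a, Ctla2b, Ccl3, Havcr2, Ccr1, Lmna and Slc15a3. For Ctla2b that call ended without any 1 array but those of lymphoid Treg (highest adjusted p 0.132). Over all genes 2.63% were called more positive in Treg in that test. The 15 genes were chosen by their Treg difference, which is part of the tested value, so the choice itself favours such calls.

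The 15 largest falls included, beside Foxp3 and Gpr83, receptors that guide cells within lymphoid organs. Cxcr5, the receptor that guides cells into B cell follicles, read 4.33 and 4.92 in tumour Treg and 8.49 and 8.43 in lymphoid Treg (difference -3.84, SE 0.182, adjusted p = 5.4e-06). Sostdc1, a secreted antagonist of BMP and Wnt signals, was lower (-4.11), as was Pou2af1, a coactivator of B cells (-3.64). Cxcr5, Sostdc1 and Pou2af1 fell in Teff as well, with Teff differences of -2.87, -5.05 and -3.63. The interferon-inducible GTPase Gbp2b read 4.18 and 4.28 in tumour Treg and 8.02 and 8.06 in lymphoid Treg (difference -3.81), and all 4 Teff arrays were low for it, at 3.67 to 4.04. Nsg2 (-3.56), Id3 (-3.52), the lubricin gene Prg4 (-3.43), the Notch pathway regulator Dtx1 (-3.31), Ccr9 (-3.30), Bach2 (-3.23) and Sh3gl3 (-3.22) followed. Of the 15 falls 9 were called in the test of the Treg difference against the Teff difference. These were Foxp3, Gpr83, Gbp2b, Nsg2, Prg4, Dtx1, Ccr9, Bach2 and Sh3gl3, of which Dtx1 and Sh3gl3 depended on single arrays, as given below. Over all genes 2.89% were called more negative in Treg in that test, and the choice of the falls by their Treg difference favours such calls. Dcpp3, a secreted protein of salivary glands, read 5.60 and 5.38 in tumour Treg and 12.43 and 10.67 in lymphoid Treg (difference -6.06), and its probe set can bind related transcripts. It fell in Teff too, with 5.25 and 5.08 in tumour Teff and 7.90 and 10.04 in lymphoid Teff (difference -3.80, adjusted p = 0.00848). PSP, the transcript given next, read 3.66 and 3.47 in tumour Teff and 4.31 and 7.33 in lymphoid Teff and was not called there. A part of salivary gland RNA in the lymphoid arrays was not tested. A transcript with the deposited name PSP read 3.56 and 3.39 in tumour Treg against 10.0005 and 5.85 in lymphoid Treg, a difference of -4.45 with adjusted p = 0.0513 to 0.17 without either tumour Teff array, tumour Treg array 1, tumour Treg array 2 or lymphoid Treg array 1.

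Genes known from tumour and tissue Treg were higher in tumour Treg as a group. Of 28 measured members 20 were higher and 0 lower, with a median of 1.39. The rise was in part shared with Teff, in which 16 of the 28 were higher and 1 lower between tumour and lymphoid arrays (median 0.84). Gzmb, the protease of cytotoxic granules, read 12.09 and 11.88 in tumour Treg and 8.49 and 8.12 in lymphoid Treg (difference 3.68, SE 0.140, adjusted p = 1.85e-06). Areg, the repair factor amphiregulin, read 10.99 and 11.12 in tumour Treg against 8.42 and 8.60 in lymphoid Treg (difference 2.54, adjusted p = 0.000213). In both genes every tumour Treg array lay above every lymphoid Treg array, but the groups overlapped in 0 of all 4916 called probe sets.

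Among receptors, Klrg1 (2.04), the interleukin-33 receptor Il1rl1 (1.80), Ccr8 (1.77) and the costimulatory receptor 4-1BB, Tnfrsf9 (1.48), were higher. Among transcription factors, Rbpj, the nuclear mediator of Notch signals, read 9.67 and 10.03 in tumour Treg and 7.78 and 7.56 in lymphoid Treg (difference 2.18, adjusted p = 3.45e-05). Rora (2.15), Id2 (2.14), Bhlhe40 (1.74), Prdm1 (1.19) and Pparg (1.15) rose as well, as did the cytokine subunit Ebi3 (1.98) and the adaptor Samsn1 (1.30). The 8 members without a call were Batf (-0.32), Cd177 (-0.25), Il10 (-0.20), Maf (-0.09), Irf4 (-0.07), Tnfrsf8 (0.08), Nfil3 (0.09) and Vdr (0.23). Il1r2 (1.01) had adjusted p = 0.0565 to 0.061 without tumour Treg array 1 or lymphoid Treg array 1, Icos (0.52) had adjusted p = 0.0522 to 0.0773 without any 1 Treg array, and Gata3 (0.54) had adjusted p = 0.0544 to 0.154 without any 1 Treg array. Without lymphoid Treg array 2 the list had 18 higher and 1 lower.

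Naive and lymphoid homing genes went the other way. Of 22 measured members 0 were higher and 17 lower in tumour Treg, with a median of -1.63. Tcf7, which encodes TCF-1, a factor that keeps T cells in a resting state, read 7.24 and 7.41 in tumour Treg and 10.52 and 10.31 in lymphoid Treg (difference -3.09, SE 0.107, adjusted p = 1.05e-06). Bach2, a repressor of effector programs, read 5.50 and 5.65 in tumour Treg against 8.85 and 8.77 in lymphoid Treg (difference -3.23, SE 0.0934, adjusted p = 5.77e-07). In both genes every tumour Treg array lay below every lymphoid Treg array, as the groups were apart in all 4916 called probe sets.

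The fall reached Id3, Klf3 (-2.83), the interleukin-6 receptor Il6ra (-2.002), Ly6c1 (-1.84), Foxp1 (-1.75), Lef1 (-1.71), Klf2 (-1.56), which drives the genes of lymphoid recirculation, Itga6 (-1.49), Satb1 (-1.47), Foxo1 (-0.94) and the lymph node homing receptor Ccr7 (-0.73). S1pr1 (-0.85) passed with all arrays but had adjusted p = 0.0543 to 0.124 without tumour Treg array 1, lymphoid Treg array 1 or lymphoid Treg array 2. Il7r (0.15), Sorl1 (0.41), Cd55 (-0.13), Myb (-0.49) and Igfbp4 (-0.41) were not called, although 3 other probe sets of Igfbp4 were lower, by -0.78 to -2.74, and both other probe sets of Myb, by -0.68 and -0.70 (adjusted p = 0.0145 and 0.0155). Without tumour Treg array 1 the list had 1 higher and 17 lower.

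Genes of the inhibitory receptor list were mostly higher, 8 of 12 with 2 lower and a median of 0.82. Not all members of the list are receptors, since Entpd1 encodes an ectonucleotidase and Pglyrp1 a secreted protein. Between tumour and lymphoid Teff 7 of the 12 were higher and 2 lower, with a median of 0.84. In the test of the Treg difference against the Teff difference 3 of the 12 were more positive in Treg and 0 more negative. Havcr2, the receptor TIM-3, read 9.18 and 9.04 in tumour Treg and 5.12 and 4.97 in lymphoid Treg (SE of the difference 0.228, adjusted p = 1.29e-05). Pdcd1, the receptor PD-1, read 10.96 and 10.97 in tumour Treg against 8.49 and 8.45 in lymphoid Treg (difference 2.49, SE 0.0987, adjusted p = 2.35e-06). Pglyrp1 (1.32), Cd200r1 (1.19) and the ligand Cd274, PD-L1 (0.45), were higher along with Klrg1, Entpd1 and Ctla4. Cd160 (-1.05) and Cd200 (-1.02) were lower, and Lag3 (-0.26) and Cd244a (-0.14) were not called. Without any 1 array the list kept its counts of 8 higher and 2 lower.

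Costimulatory receptors and ligands were split, with 7 higher and 5 lower of 19 and a median of 0.17. The death ligand Fasl (1.21), the TRAIL gene Tnfsf10 (0.95) and Tnfrsf4, which encodes OX40, were higher beside Tnfrsf9 and Tnfrsf18. Tnfsf8 (-1.65), the receptor DR3 encoded by Tnfrsf25 and the RANK ligand Tnfsf11 (-0.97) were lower. Fas was called lower with all arrays, with adjusted p = 0.0669 to 0.0676 without tumour Treg array 2 or lymphoid Treg array 1, and Cd86 higher, with adjusted p = 0.101 to 0.139 without tumour Treg array 1, tumour Treg array 2 or lymphoid Treg array 2. Without tumour Treg array 2 or lymphoid Treg array 1 the counts were 6 higher and 3 lower.

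Chemokine receptors moved in both directions. Of 18 chemokine and sphingosine phosphate receptors 9 were higher and 4 lower (median 0.37). Between tumour and lymphoid Teff 9 of the 18 were higher and 2 lower (median 0.57). In the test of the Treg difference against the Teff difference 3 were more positive in Treg and 2 more negative. Ccr1 read 8.44 and 7.59 in tumour Treg and 3.98 and 4.22 in lymphoid Treg (SE of the difference 0.246, adjusted p = 2e-05). Ccr2, the receptor of Ccl2, read 11.24 and 11.02 in tumour Treg against 8.46 and 8.58 in lymphoid Treg (difference 2.61, adjusted p = 1.14e-05). Cx3cr1 (1.21), Cxcr3 (1.16), the receptor of interferon-induced chemokines, and S1pr4 (1.06) were also higher. Ccr9, the gut homing receptor, read 4.36 and 6.06 in tumour Treg and 8.26 and 8.74 in lymphoid Treg and was lower with Cxcr5 and Ccr7. Its probe set is of a type that can bind related transcripts. Ccr4 (0.11), Ccr6 (-0.20), Ccr10 (-0.10), Cxcr4 (0.14) and Ackr3 (0.12) were not called.

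Of 28 chemokine and cytokine genes 13 were higher and 4 lower (median 0.51). Between tumour and lymphoid Teff 12 of the 28 were higher and 3 lower (median 0.29). In the test of the Treg difference against the Teff difference 8 were more positive in Treg and 4 more negative. Ccl3 read 8.48 and 9.0006 in tumour Treg and 4.26 and 4.84 in lymphoid Treg (SE of the difference 0.243, adjusted p = 1.4e-05). Spp1, the secreted phosphoprotein osteopontin, read 7.21 and 7.11 in tumour Treg against 3.91 and 3.27 in lymphoid Treg (difference 3.57, adjusted p = 0.000392). The chemokines Ccl5 (2.60), Ccl4 (2.50), Xcl1 (2.28) and Ccl1 (1.98), the suppressive mediator Fgl2 (2.34), the type 1 cytokine Ifng (1.996) and lymphotoxin beta, Ltb (1.31), rose. Fgl2 rose more in Teff than in Treg, with a Treg minus Teff difference of -1.11 to -0.98 without any 1 array. Lymphotoxin alpha, Lta, was lower (-1.04). Il10 (-0.20), Tgfb1 (0.30), Il17a (0.05), Il2 (-0.07), Tnf (-0.43) and Cxcl10 (0.39) were not called. Il21 was called lower with all arrays, with adjusted p = 0.0506 to 0.0544 without tumour Treg array 2 or lymphoid Treg array 1. The lower count was 1 without tumour Treg array 2 or lymphoid Treg array 1 and 2 without tumour Treg array 1.

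Some cytotoxic genes rose while others had no call. Of 17 members 9 were higher and 1 lower (median 0.35). Between tumour and lymphoid Teff 9 of the 17 were higher and 0 lower (median 0.61). Nkg7, a granule membrane protein of killer cells, read 10.83 and 11.11 in tumour Treg and 7.42 and 7.24 in lymphoid Treg (difference 3.64, SE 0.152, adjusted p = 2.74e-06). Ctsw (1.12), perforin, Prf1 (1.10), and the granzyme inhibitors Serpinb6b (1.10) and Serpinb9 (0.97) were higher beside Gzmb and Fasl. Gzma (-0.26), Gzmk (0.11) and Gzmm (0.02) were not called, and Gzmc (0.57) had adjusted p = 0.058 to 0.137 without any 1 Treg array. Lamp1, a lysosomal membrane protein, was lower (-0.9999).

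Nearly all measured genes of glycolysis rose. Of 19 measured members 17 were higher and 0 lower, with a median of 1.31, and without any 1 array 15 to 17 were higher. The steps from glucose uptake to lactate export were all represented. At uptake, the glucose transporter Slc2a1 read 10.52 and 10.24 in tumour Treg and 8.84 and 8.86 in lymphoid Treg (difference 1.53, SE 0.111, adjusted p = 3.92e-05), while Slc2a3 (0.21) was not called. The hexokinase Hk2 (1.36), the phosphofructokinases Pfkl (1.34) and Pfkp (0.71) and Gpi1 (0.54) were higher. Aldolase C, Aldoc, read 9.18 and 9.07 in tumour Treg and 6.81 and 6.74 in lymphoid Treg (difference 2.35, SE 0.196, adjusted p = 8.93e-05).

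Further along the pathway Tpi1 read 11.44 and 11.27 in tumour Treg against 9.41 and 9.31 in lymphoid Treg (difference 1.996, adjusted p = 9.72e-06). Pgk1 (1.59), Aldoa (1.51), pyruvate kinase, Pkm (1.40), Eno1 (1.36), Pgam1 (1.31) and Gapdh (0.91) rose with it. Lactate dehydrogenase, Ldha, read 12.26 and 12.17 in tumour Treg and 11.18 and 11.06 in lymphoid Treg (difference 1.09, adjusted p = 6.77e-05). The lactate exporter Slc16a3 was higher (1.12) and the lactate carrier Slc16a1 was not called (0.02). Hk1 (0.34) had adjusted p = 0.0922 to 0.13 without any 1 Treg array, and Pfkfb3 (0.39) had adjusted p = 0.0823 to 0.109 without tumour Treg array 1, tumour Treg array 2 or lymphoid Treg array 2. By contrast, of 24 genes of oxidative phosphorylation 2 were called, and the median of that list was -0.02. The 2 were Cox5a (0.34), with adjusted p = 0.0859 to 0.112 without any 1 Treg array, and Sdhb (0.39), with adjusted p = 0.0505 to 0.165 without either lymphoid Teff array, tumour Treg array 1, lymphoid Treg array 1 or lymphoid Treg array 2.

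Genes that answer to low oxygen were higher in 10 of 19 cases and lower in 0 (median 0.96). Hilpda, a lipid droplet protein induced by hypoxia, read 10.04 and 10.10 in tumour Treg and 6.97 and 6.99 in lymphoid Treg, an 8.51-fold difference (3.09, SE 0.120, adjusted p = 2.01e-06). Bnip3, a mitophagy receptor, read 9.98 and 9.35 in tumour Treg against 7.26 and 6.93 in lymphoid Treg (difference 2.57, SE 0.196, adjusted p = 5.35e-05). The mTORC1 inhibitor Ddit4 read 10.75 and 10.64 in tumour Treg and 8.60 and 8.77 in lymphoid Treg (difference 2.01, adjusted p = 3.18e-05). Plod2 (2.48), the oxidoreductase Ero1a (1.89), Ndrg1 (1.40), the oxygen sensors Egln3 (1.27) and Egln1 (0.93), Higd1a (0.97) and Mxi1 (0.96) were also higher. Adm (1.05) and Car9 (0.96) differed by as much but were not called. Vegfa (0.21), Bnip3l (0.10), P4ha1 (-0.02), Kdm3a (-0.25) and Pdk1 (-0.26) were not called. Melanoma markers stood at 10.80 to 11.25 in the same tumour Treg arrays, and their part in the glycolysis and hypoxia results was not tested.

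Promoters of 4 of these risen genes are shown because the glycolysis and hypoxia genes moved together and ACGTG is the core of the sites bound by hypoxia-inducible factors. The windows run 5′ to 3′ in the direction of transcription, from 250 bases before to 50 after the RefSeq start, on build GRCm38.p6: Hilpda at chr6:29272376-29272675 (plus strand), Bnip3 at chr7:138909457-138909756 (minus strand), Aldoc at chr11:78322823-78323122 (plus strand) and Slc2a1 at chr4:119108495-119108794 (plus strand). Capitals mark ACGTG or, on the other strand, CACGT, and in Bnip3 the matches of both strands overlap in CACGTG, the E-box that Myc-family factors also bind.
Hilpda: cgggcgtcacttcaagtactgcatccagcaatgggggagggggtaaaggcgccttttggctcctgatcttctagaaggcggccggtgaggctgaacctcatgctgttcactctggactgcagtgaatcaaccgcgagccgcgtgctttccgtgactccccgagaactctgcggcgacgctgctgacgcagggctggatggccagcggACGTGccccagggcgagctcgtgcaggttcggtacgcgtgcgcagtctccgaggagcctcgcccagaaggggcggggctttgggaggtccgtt
Bnip3: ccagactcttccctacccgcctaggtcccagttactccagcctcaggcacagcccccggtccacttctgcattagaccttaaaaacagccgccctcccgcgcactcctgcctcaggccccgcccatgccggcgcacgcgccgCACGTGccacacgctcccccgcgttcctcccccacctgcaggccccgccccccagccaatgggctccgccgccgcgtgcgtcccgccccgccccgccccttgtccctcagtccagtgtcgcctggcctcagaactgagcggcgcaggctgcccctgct
Aldoc: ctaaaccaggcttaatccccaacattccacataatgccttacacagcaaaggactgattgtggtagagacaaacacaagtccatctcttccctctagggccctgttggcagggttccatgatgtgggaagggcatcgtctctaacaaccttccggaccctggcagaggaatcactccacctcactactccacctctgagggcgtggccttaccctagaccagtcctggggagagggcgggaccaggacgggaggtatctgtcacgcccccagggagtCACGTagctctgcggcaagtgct
Slc2a1: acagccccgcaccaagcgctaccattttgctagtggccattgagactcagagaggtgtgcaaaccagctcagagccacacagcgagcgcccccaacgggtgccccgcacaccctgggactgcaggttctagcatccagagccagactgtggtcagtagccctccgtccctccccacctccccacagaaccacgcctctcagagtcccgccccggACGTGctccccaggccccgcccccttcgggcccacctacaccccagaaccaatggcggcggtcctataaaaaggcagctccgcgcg
The match begins 43 bases before the start in Hilpda, 36 before it in Slc2a1 and 108 before it in Bnip3, and 27 bases after it in Aldoc.

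On either strand ACGTG occurred in 6447 of 32851 RefSeq windows of that length (19.6%). It occurred in 15 of 27 windows of glycolysis genes (55.6%). Counted by gene, it occurred in 12 of the 17 glycolysis genes that were higher in tumour Treg (70.6%). It also occurred in the 1 glycolysis gene with a window that had no call. A gene can have more than 1 window, so shares of genes cannot be set directly against shares of windows. In the hypoxia list it occurred in 15 of 27 windows (55.6%), in all 8 of the risen genes that had a window and in 5 of 8 genes without a call (62.5%). Both lists were drawn up from genes known to answer to low oxygen or to belong to the pathway, and a match is a description of these letters, not a bound site.

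Part of the glycolysis and hypoxia genes differed more between tumour and lymphoid Treg than between tumour and lymphoid Teff. The Teff comparison, tumour against lymphoid, called 7.36% of all genes higher and 7.60% lower, and 11 of 19 glycolysis genes were higher and 1 lower there (median 0.35), as were 8 and 1 of 19 hypoxia genes (median 0.38). The test of the difference between the Treg and the Teff comparisons, which share no array, called 2.63% of all genes as more positive in Treg and 2.89% as more negative, 5.52% in all (2.44% and 2.67% of probe sets). In that test 8 of 19 glycolysis genes and 6 of 19 hypoxia genes were more positive in Treg and 0 of either list more negative. Hilpda differed by 3.09 in Treg and 0.93 in Teff (difference of differences 2.16, adjusted p = 0.00071). Pkm differed by 1.40 in Treg and 0.19 in Teff (1.21, adjusted p = 0.00301), and Ddit4 by 2.01 in Treg and 0.05 in Teff (1.96, adjusted p = 0.00176). Eno1 (1.03), Aldoa (0.91) and Ero1a (1.34) were called as well, and all 6 held the call without any 1 array. The count was 5 glycolysis genes without lymphoid Teff array 1 or without lymphoid Teff array 2. It was 3 hypoxia genes without lymphoid Teff array 1, lymphoid Teff array 2, lymphoid Treg array 2 or tumour Treg array 1. Bnip3, Slc2a1, Tpi1 and Aldoc were not called in this test (adjusted p = 0.0727, 0.0597, 0.0749 and 0.489).

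**Figure D4:**
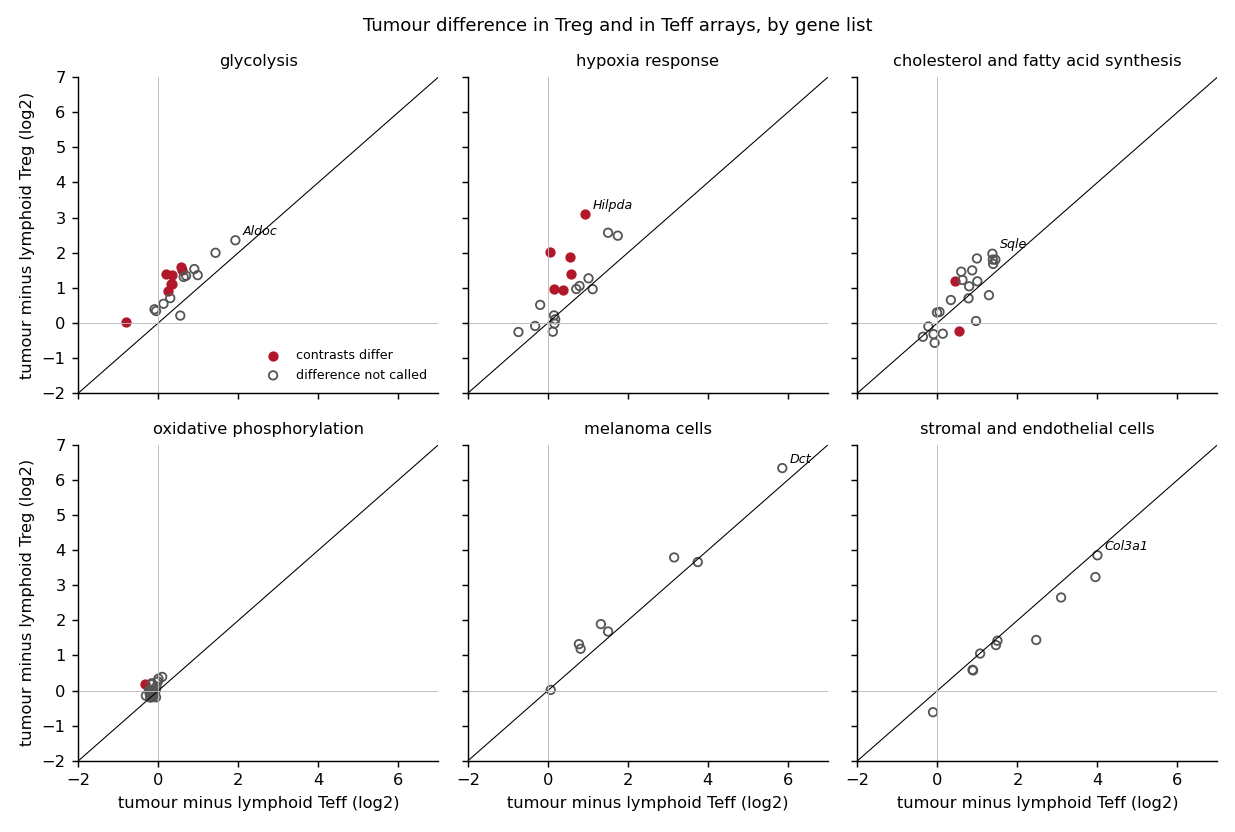
Tumour minus lymphoid difference of each gene in Treg (vertical axis, log2) against the same difference in Teff (horizontal axis, log2), for 6 gene lists. Filled red points differ between Treg and Teff by the test, and the diagonal marks equal differences. Glycolysis and hypoxia points mostly lie above the diagonal, melanoma and stromal points near it, and oxidative phosphorylation points near zero on both axes.

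Cholesterol synthesis genes were higher in the tumour arrays of both cell types. Of 23 sterol and fatty acid genes 15 were higher and 2 lower in tumour Treg (median 0.79), and in Teff 14 were higher and 1 lower (median 0.62). Sqle, squalene epoxidase, read 8.54 and 8.23 in tumour Treg and 6.35 and 6.48 in lymphoid Treg (difference 1.97, SE 0.188, adjusted p = 0.000185). Cyp51 (1.83), Hmgcs1 (1.80), Idi1 (1.80), Msmo1 (1.68) and the regulator Srebf2 (1.20) were higher. On the fatty acid side Elovl6 was higher (0.79), Acaca (-0.10), Acly (-0.32) and Scd1 (0.31) were not called, and Fasn (-0.40) was called lower with all arrays but had adjusted p = 0.0529 to 0.131 without any 1 Treg array. Scd2 (-0.57) likewise had adjusted p = 0.0598 to 0.155 without any 1 Treg array or either lymphoid Teff array. The count of lower genes was 0 or 1 without any Treg array or lymphoid Teff array, and that of higher genes 12 to 15 without any 1 array. Summed melanoma markers stood at 10.80 to 11.25 in tumour Treg and 7.82 to 7.84 in lymphoid Treg, and at 10.29 to 11.30 in tumour Teff and 7.87 to 7.91 in lymphoid Teff. Their part in the cholesterol result, and that of the stromal markers, was not tested.

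Nearly all measured genes of the S100, annexin, galectin and cytoskeleton list were higher, 19 of 20 with 1 lower and a median of 1.02. The rise was in part shared with Teff, in which 13 of the 20 were higher and 1 lower between tumour and lymphoid arrays (median 0.96). Lmna read 9.13 and 9.29 in tumour Treg and 5.36 and 5.50 in lymphoid Treg (difference 3.78, SE 0.128, adjusted p = 1.05e-06), although a dimmer probe set of Lmna differed by 0.17 and was not called. Anxa1, the glucocorticoid-regulated annexin, read 8.60 and 8.75 in tumour Treg against 5.57 and 5.87 in lymphoid Treg (difference 2.95, adjusted p = 1.29e-05). Tubb6 (2.89), Anxa2 (2.33), Lgals3 (2.13), vimentin, Vim (1.96), Anxa4 (1.88), S100a4 (1.76) and galectin-1, Lgals1 (1.73), rose, and Actn1 was lower (-1.23). The list had 16 to 19 higher without any 1 array. In 7 of the 20 the difference was more positive in Treg than in Teff, and Lmna (1.92), Tubb6 (1.96), Anxa2 (1.25) and Vim (0.96) held that call without any 1 array. The count of 7 was 4 without lymphoid Teff array 2, lymphoid Treg array 2 or tumour Treg array 1. Stromal cells express several of these genes too. Stromal markers stood at 9.67 to 10.77 in these tumour Treg arrays, and their part was not tested.

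Among 20 integrin and adhesion genes 8 were higher and 3 lower (median 0.19). The integrin chain Itgav read 11.80 and 11.45 in tumour Treg and 10.10 and 10.10 in lymphoid Treg (difference 1.53, adjusted p = 6.26e-05). Cd44 (1.15), a receptor of hyaluronan, Emb (1.04), Cd81 (0.89), Icam1 (0.76) and the selectin ligand Selplg (0.68) were higher. Itga4 read 5.06 and 5.28 in tumour Treg against 7.02 and 6.89 in lymphoid Treg (difference -1.78), and Itga6 and Cd9 (-0.98) were also lower.

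Several genes of mitosis were higher. Of 32 cell cycle genes 14 were higher and 2 lower (median 0.36). Ccnb2, the mitotic cyclin B2, read 8.55 and 8.39 in tumour Treg and 7.31 and 7.11 in lymphoid Treg (difference 1.26, adjusted p = 0.000159). Mki67, the proliferation marker, read 9.74 and 9.87 in tumour Treg against 9.04 and 8.76 in lymphoid Treg (difference 0.91, adjusted p = 0.00152). Cenpa (1.24), Cenpe (1.06), Bub1 (1.01), Prc1 (0.94), Tk1 (0.77) and Tpx2 (0.76) were higher. Mcm3 (-0.04), Mcm5 (0.07), Mcm6 (-0.23), Mcm7 (-0.34), Rrm2 (0.07) and Ccne1 (-0.07) were not called. Mcm2 (-0.29) and Pcna (-0.28) were lower with all arrays. Mcm2 had adjusted p = 0.0698 to 0.161 without any 1 Treg array or either lymphoid Teff array, and Pcna had adjusted p = 0.057 to 0.186 without any 1 Treg array, either lymphoid Teff array or either tumour Teff array. Without any 1 array 0 or 1 genes of the list were lower and 10 to 15 higher. Melanoma markers were higher in the same arrays (7 of 8, summed level 10.80 to 11.25 in tumour Treg and 7.82 to 7.84 in lymphoid Treg), and their part in the cell cycle counts was not tested. For Mcm7 2 other probe sets were lower (-0.36 and -0.38), and for Bub1 another probe set was not called (-0.11).

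Of 19 apoptosis and survival genes 4 were higher and 2 lower. Bcl2, the survival factor of resting lymphocytes, read 4.94 and 4.75 in tumour Treg and 7.08 and 7.14 in lymphoid Treg (difference -2.26, SE 0.121, adjusted p = 1.06e-05). Its relative Bcl2l1, which encodes Bcl-xL, read 8.99 and 8.78 in tumour Treg against 7.98 and 8.03 in lymphoid Treg (difference 0.88, adjusted p = 0.000671). Pmaip1 (1.11), which encodes the death mediator Noxa, and Bak1 (0.71) were higher, and Mcl1 (-0.04) was not called by its brightest probe set. Of 5 other probe sets of Mcl1 4 were lower, by -0.31 to -0.36 (adjusted p = 0.0188 to 0.045), while 3 others of Bcl2l1 (-0.22 to 0.26) and 1 of Bak1 (0.09) were not called. Among the other named genes whose brightest probe set had no call, another probe set was higher for Cd4 (0.36) and Vegfa (0.61), 2 were higher for Slc2a3 (0.52 and 0.27), and 1 was lower for Irf4 (-0.52) and Pdk1 (-0.38). Bcl2l11 (-0.37) was called lower with all arrays but had adjusted p = 0.083 to 0.134 without any 1 Treg array, and the lower count was then 1.

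Early response genes were split, with 7 higher and 7 lower of 26 and a median of 0.03. Egr2, a target of T cell receptor signals, read 6.28 and 6.75 in tumour Treg and 8.82 and 8.74 in lymphoid Treg (difference -2.26, adjusted p = 4.85e-05). Klf4 (-1.24), Egr1 (-1.06), Fos (-1.003), Myc (-0.94), Btg2 (-0.91) and Fosb (-0.67) were lower as well. Tnfaip3, the NF-kappaB inhibitor A20, read 10.10 and 10.08 in tumour Treg against 8.41 and 8.70 in lymphoid Treg (difference 1.53, adjusted p = 0.000192), and Ier3 (1.499) and Klf6 (0.66) were higher. The receptors Nr4a1 (-0.09), Nr4a2 (0.16) and Nr4a3 (0.18) were not called. Without lymphoid Treg array 1 the list had 3 higher and 8 lower. Of 21 genes of proximal T cell receptor signalling 2 were higher and 6 lower (median -0.05), led by Prkcq (-1.42) and Nfatc1 (-0.94) as lower and Ptpn22 (0.49) as higher. The lower count was 2 without tumour Treg array 1, 3 without lymphoid Treg array 1 and 4 without lymphoid Treg array 2, and the higher count was 1 without any 1 Treg array but lymphoid Treg array 1.

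Of 19 NF-kappaB genes 11 were higher and 2 lower (median 0.39). Nfkb2, the precursor of p52 in the noncanonical arm of this pathway, read 8.85 and 8.89 in tumour Treg and 7.91 and 7.84 in lymphoid Treg (difference 0.99, adjusted p = 7.81e-05). Traf1 (0.95), Bcl3 (0.62) and the inhibitor Nfkbib (0.60) were higher, Ikbke (-0.79) and Tnip1 (-0.48) were lower, and Rela (-0.14), Nfkb1 (-0.05) and Rel (-0.04) were not called. The list had 7 higher genes without tumour Treg array 1 or tumour Treg array 2. Of 9 dual specificity phosphatase and Sprouty genes, feedback inhibitors of MAP kinase signals, 3 were higher: Dusp3 (1.12), Dusp16 (0.92) and Dusp14 (0.88), the last with adjusted p = 0.129 without tumour Treg array 2 or lymphoid Treg array 1. Spry1 (-0.25) and Spry2 (-0.03) were not called.

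Interferon response genes had 7 higher and 4 lower of 27 (median 0.17). Isg20 (1.36), Ly6a, which encodes Sca-1 (1.22), Rsad2 (1.01), Ifit1 (0.79), Ifit3 (0.65), Mx1 (0.62) and Psmb9 (0.46) were higher, while Irf1 (0.14) and Irf7 (0.44) were not called. All 4 lower genes, Usp18, Gbp2, Gbp3 and Irf9, lost their calls without 1 array or another: 0 were lower without lymphoid Treg array 1 or tumour Treg array 2 and 2 without lymphoid Treg array 2. Metallothionein genes led a small set of stress genes, 5 higher and 1 lower of 18 (median 0.03). Mt2 read 8.60 and 8.40 in tumour Treg and 6.29 and 6.36 in lymphoid Treg (difference 2.17, adjusted p = 1.31e-05), and Mt1 was higher by 3.14, with a dimmer probe set at 0.11. Srxn1 (1.68) and Txn1 (0.60), redox enzymes, were higher, and Hmox1 (0.02) and Nqo1 (0.31) were not called. Gclc was lower with all arrays (-0.36) but had adjusted p = 0.0707 to 0.0937 without tumour Treg array 2 or lymphoid Treg array 1.

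Of 24 heat shock and unfolded protein genes 2 were higher and 3 lower (median -0.09), with Pdia3 (1.002) and Hspe1 (-0.90) the calls that held without any 1 array. The lower count was 1 without lymphoid Treg array 1 or tumour Treg array 1 and 5 without tumour Treg array 2. Glucocorticoid response genes had 5 higher and 1 lower of 11. The glucocorticoid receptor Nr3c1 read 10.69 and 10.74 in tumour Treg and 9.39 and 9.54 in lymphoid Treg (difference 1.25, adjusted p = 5.65e-05), Sgk1 (0.89) and Ddit4 were higher, and Tsc22d3 (0.27) was not called. The higher count was 3 without lymphoid Treg array 1 or tumour Treg array 1, and the lower count 0 without lymphoid Treg array 1 or tumour Treg array 2. Polycomb and DNA methylation genes had 1 higher and 4 lower of 18 (median -0.12). Rnf2, a ubiquitin ligase of Polycomb complex 1, read 9.23 and 9.20 in tumour Treg against 10.05 and 10.05 in lymphoid Treg (difference -0.84, adjusted p = 0.000393). Ezh2 (-0.30), Suz12 (0.13) and Dnmt1 (-0.01) were not called, the lower count was 2 without tumour Treg array 1, and the higher count 0 without tumour Treg array 1, tumour Treg array 2 or lymphoid Treg array 2.

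**Figure D5:**
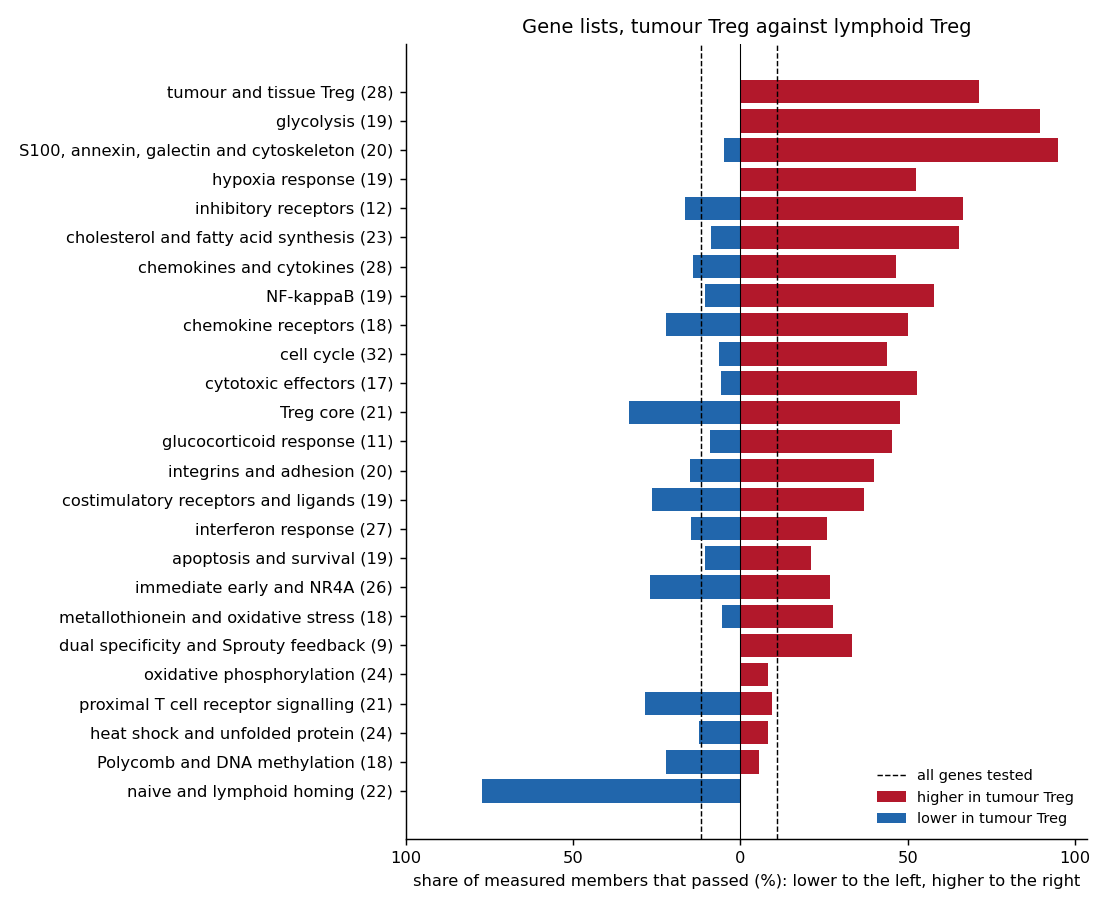
Share of the measured members of each gene list that passed the test, with lower in tumour Treg to the left and higher to the right (percent, number measured in brackets). Dashed lines mark the shares over all 13231 genes, 11.8% lower and 11.1% higher. Glycolysis (17 of 19), the S100 list (19 of 20) and the tumour and tissue Treg list (20 of 28) reach far to the right, and naive and lymphoid homing genes (17 of 22 lower) far to the left.

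The genes in which the tumour difference of Treg departed most from that of Teff were found by the test of the difference between both comparisons. On the positive side stood Spp1 with 4.74 (adjusted p = 0.00314), which read 6.07 and 7.36 in tumour Teff and 8.19 and 7.59 in lymphoid Teff and so differed by 3.57 in Treg and -1.17 in Teff. Ccr1 (3.30), Havcr2 (3.29), the prohormone convertase Pcsk1 (2.85), Ccl3 (2.71) and Cxcr6 (2.57) followed. Havcr2 stayed low in Teff, at 5.36 and 5.01 in tumour Teff and 4.02 and 4.79 in lymphoid Teff. Cxcr6 was high in tumour Teff too, at 11.0003 and 11.39 against 8.30 and 8.37 in lymphoid Teff, and differed by 2.86 there.

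On the negative side, after Foxp3 (-6.75, adjusted p = 1.86e-07), stood Ccr9 with -5.87, which differed by -3.30 in Treg and 2.57 in Teff, choline dehydrogenase, Chdh (-4.11), Gpr83 (-4.01), Gbp2b (-3.57) and D13Ertd608e (-3.56). Chdh read 4.54 and 4.87 in tumour Treg, 7.12 and 7.42 in lymphoid Treg, 8.82 and 7.82 in tumour Teff and 6.95 and 6.60 in lymphoid Teff. D13Ertd608e differed by -1.28 in Treg, with adjusted p = 0.0501 to 0.199 without either lymphoid Teff array, tumour Treg array 1, lymphoid Treg array 1 or lymphoid Treg array 2. Tumour Teff carried more signal of plasmacytoid dendritic cells, of which Ccr9 is a marker: the summed level of that list was 13.17 to 13.94 in tumour Teff and 11.41 to 11.55 in lymphoid Teff, beside 11.62 in both tumour Treg arrays and 10.71 to 10.88 in lymphoid Treg. In Teff 11 of 11 of these markers were higher, against 2 higher and 2 lower of 11 in Treg (1 lower without lymphoid Treg array 2 or either tumour Treg array, and 3 higher and 4 lower without either tumour Teff array). Among these markers Klk1 was not called in Treg by its brightest probe set (-0.18), but other probe sets of Klk1 were lower (-4.32 and -4.20). The part of these markers in the negative values of Ccr9, Chdh and D13Ertd608e was not tested. Of the naive and lymphoid homing list 12 of 22 genes were more negative in Treg than in Teff and 0 more positive (11 to 14 more negative without any 1 array, and 1 more positive without tumour Teff array 1). Tcf7 (-2.70) and Bach2 (-2.77) stayed high in Teff, Tcf7 at 11.57 and 11.69 in tumour Teff and 12.02 and 12.03 in lymphoid Teff, and Bach2 at 9.29 and 9.39 in tumour Teff and 9.77 and 9.84 in lymphoid Teff.

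Among the other lists, 7 of 28 tumour and tissue Treg genes were more positive in Treg than in Teff and 0 more negative: Cxcr6, Havcr2, Rbpj (1.69), Vdr (1.81), Id2 (1.34), Ebi3 (1.04) and Pparg (0.87). Vdr was not called in Treg (0.23) and was lower in tumour than in lymphoid Teff (-1.58, adjusted p = 0.000273). Pparg lost the call in the difference without any 1 array but tumour Teff array 2 (adjusted p = 0.0501 to 0.099), Ebi3 without any of 5 arrays (0.0584 to 0.105) and Id2 without lymphoid Teff array 2 (0.0536). The count was 4 without lymphoid Teff array 2, and 1 gene was more negative without tumour Teff array 1. Gzmb, Areg, Rora, Il1rl1 and Bhlhe40 were not called in this test (adjusted p = 0.96, 0.137, 0.96, 0.12 and 0.978). Of 21 Treg core genes 0 were more positive in Treg and 6 more negative, namely Foxp3, Gpr83, Socs2 (-1.60), Gata1 (-1.55), Nrp1 (-1.32) and Ecm1 (-0.90), and 1 was more positive without tumour Teff array 2. Ecm1 lost the call without any 1 array but lymphoid Teff array 1 (adjusted p = 0.0577 to 0.114). Of 17 cytotoxic genes 2 were more positive, Nkg7 and Prf1, and 5 more negative, and 2 to 4 were more negative without any 1 array. Of 24 oxidative phosphorylation genes 1 was called with all arrays and 0 without any 1 array.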

How the data were processed

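Gene expression was measured on Affymetrix mouse arrays in 8 samples normalized together, 2 per group of tumour Treg, lymphoid Treg, tumour Teff and lymphoid Teff. Per the submitters' processing notes the authors summarised probe intensities by RMA (version not given in the sources used here), and the log2 values were used as deposited. RMA sets arrays on a common distribution, so a difference is relative to the other probe sets of the array. The 64 Affymetrix control probe sets were left out, which left 22626. Names came from the deposited table and were updated through RefSeq: 19501 probe sets kept a current symbol, 540 were named through an accession and 1160 through a synonym, 396 kept the deposited name and 1029 had none. A gene was represented by its probe set of highest mean over the 8 arrays, and 5236 genes had more than 1.

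A linear model with 4 group means was fitted with limma 3.58.1 in R 4.3.3 (lmFit and eBayes, 4 residual and 4.33 prior degrees of freedom). The contrasts were tumour minus lymphoid Treg and that difference minus the same difference in Teff, with Benjamini-Hochberg adjustment over all probe sets and a threshold of 0.05. Adjusted p-values are two-sided limma values. The Teff arrays helped to estimate the spread. With 2 arrays per group their number limits the precision. Figures and counts were made with Python 3.11.15, pandas 2.3.3 and matplotlib 3.10.9, and the fit was tested on simulated data. Promoter windows came from RefSeq, build GRCm38.p6.

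Named genes were Foxp3, the 15 largest rises and falls among called genes with groups that do not overlap (sex-linked, receptor segment and clone names left out), up to 8 called members per gene list with further members as values, marker lists, and the 6 largest in each direction by the difference between the Treg and Teff contrasts among genes called in both. The comparison and the 37 gene lists were chosen with earlier results of these data known. Alternatives covered the variance model, centring, a repeated normalization, a brightness filter, probe set summaries, a fold threshold, the replicate number as a block, the 4 Treg arrays alone and leaving out each array. Another 10 arrays of the study, normalized in a table of their own, and 21 value columns of the table that supplied the names were not used here. A few members of the lists are counted but not reported here by name.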

Additional observations from a re-analysis of the deposited data

Results flagged for a closer look

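In 21 of the named largest changes, out of 731 genes called in that test (5.52%), the tumour minus lymphoid difference in Treg departed from that in Teff by the limma test of the difference itself, and the values given are the Treg difference minus the Teff difference on the log2 scale. On the negative side these were Foxp3 (-6.75), the gut homing receptor Ccr9 (-5.87), choline dehydrogenase, Chdh (-4.11), Gpr83 (-4.01), the GTPase Gbp2b (-3.57), D13Ertd608e (-3.56), the repressor Bach2 (-2.77), lubricin, Prg4 (-2.24), Nsg2 (-2.06), Sh3gl3 (-1.40) and Dtx1 (-0.83). For Sh3gl3 and Dtx1 that call ended without any of 6 arrays, at highest adjusted p = 0.102 without lymphoid Teff array 1 for Sh3gl3 and 0.0911 without lymphoid Teff array 2 for Dtx1.

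On the positive side these were osteopontin, Spp1 (4.74), the chemokine receptor Ccr1 (3.30), the inhibitory receptor Havcr2 (3.29), the convertase Pcsk1 (2.85), the chemokine Ccl3 (2.71), Cxcr6 (2.57), the lamina gene Lmna (1.92), Slc15a3 (1.91), and the protease inhibitors Ctla2a (1.84) and Ctla2b (1.36). Ctla2b lost the call without any of 6 arrays, with a highest adjusted p of 0.132 without lymphoid Teff array 1. Groups of 2 arrays are too small to look for a single array that stands apart.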

How the results depend on the processing

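With all 8 arrays 2412 probe sets were higher and 2504 lower in tumour Treg, and 1157 differed between the Treg and Teff comparisons. With 1 probe set per gene before the fit, which tests fewer features, the counts were 1506 higher, 1617 lower and 768 in the difference. With the mean of probe sets per gene they were 1548 higher and 1607 lower. Tested against a log2 difference of 1, 230 were higher and 141 lower. Leaving out 1 array gave 1664 to 2467 higher, 1477 to 2492 lower and 556 to 1120 in the difference. The lower count was 1477 without tumour Treg array 1, 1600 without tumour Treg array 2 and 1578 without lymphoid Treg array 1. The count in the difference was 556 without lymphoid Teff array 2, 591 without lymphoid Teff array 1, 631 without lymphoid Treg array 2, 677 without tumour Treg array 1 and 755 without lymphoid Treg array 1. The cause was not tested beyond the smaller number of arrays. The other alternatives stayed within 1.5 times in count, although the brightness filter tested fewer probe sets and so called a larger share of them.

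Same-numbered tumour and lymphoid Treg arrays had deviations that correlated at r = -0.0513 over probe sets, and same-numbered tumour Treg and tumour Teff arrays at 0.176. The other 4 pairs of groups lay between -0.121 and 0.0516, so the numbers were not taken as pairs. No label says whether tumour arrays of the same number share a source. With the replicate block 2298 were higher, 2312 lower and 1019 differed. Of 316 listed or named genes that were called, 82 lost the call without 1 array or another, among them Col3a1 and PSP of the 30 largest. Under the mean of probe sets Ak4 reversed to 0.47 (adjusted p = 0.0117), and C1qc, which was not called with all arrays, ranged from -0.89 without tumour Treg array 1 to 0.62 without tumour Treg array 2. With 2 arrays per group small differences can go undetected, although some, such as Mcm2 (-0.29), passed with all arrays. The median standard error of a difference was 0.109.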
